A study of Mus musculus with 8 samples.

Results

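The complement genes C1qa, C1qb, C1qc, C3, C4b, C3ar1, C5ar1, Cfb and Cfp, 9 of the 30406 genes listed in every library, were chosen by name and followed through all clusters, tissues and times of a single-cell RNA-seq study of stroke in mice. Leukocytes were sorted from adult male C57BL/6 mice at least 10 weeks old as CD45+ cells that a CD45 antibody injected into the blood had not stained, and droplet libraries with unique molecular identifiers (UMIs, one per captured transcript) were made from them. The control libraries came from brain, pia and dura, 1 library each, of mice that the study calls naive in 1 place and sham-operated in another, so that whether surgery is part of the difference from control is not known, and the stroke libraries came from mice with transient middle cerebral artery occlusion (MCAO): brain at 24 h (2 libraries, replicate 1 and replicate 2), brain at 72 h, pia at 24 h and dura at 24 h. The mice carried no transgene by the labels, mice were pooled for each tissue and the number behind each library was not stated, the injected antibody reduces blood cells in the sort but does not show that none remained, and the control library taken as pia carries brain in its title and pia in the rest of its labels. Cells were taken with the cluster names that the authors deposited, and the UMIs of each gene were summed per library and cluster and divided by all UMIs of that sum, which after scaling gives counts per 1000000 UMIs (CPM).

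Complement is a cascade of blood and tissue proteins that tags targets and calls in phagocytes. C1q, the recognition part of the classical pathway, is assembled from the A, B and C chains that C1qa, C1qb and C1qc encode. C4 and C3 are cleaved and bind to the target, factor B (Cfb) forms the C3-cleaving enzyme of the alternative pathway, and properdin (Cfp) stabilises that enzyme. The small fragments C3a and C5a act through the receptors encoded by C3ar1 and C5ar1, which lie on myeloid cells. In the brain, microglia are a known source of C1q, and C1q and C3 are known for their part in the removal of synapses.

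All members are protein-coding genes on the minus strand of mm10. C1qa (ENSMUSG00000036887) lies at chr4:136895917-136898803, C1qc (ENSMUSG00000036896) at chr4:136889804-136893065 and C1qb (ENSMUSG00000036905) at chr4:136880129-136886187, so the 3 chains sit within 18675 bases of chromosome 4. C4b (chr17:34728380-34743882), Cfb (chr17:34856374-34862518) and C3 (chr17:57203970-57228136) are on chromosome 17. C3ar1 (chr6:122847138-122856161), C5ar1 (chr7:16246743-16259540) and Cfp (chrX:20925454-20931555) are each on a chromosome of their own. Because the levels of the C1q chains were closely alike across the clusters, the promoters were searched for GAGGAA, the core bound by the myeloid factor PU.1, on both strands in the 250 bases before the RefSeq start (GRCm38.p6). Among all promoters 23.3% of 32851 held it, and among the 6 members with an entry it was found in C1qb and C1qc, with 1 match each, and not in C3, C3ar1, C5ar1 or Cfp. The stretches with the match are shown 5′ to 3′ on the gene's strand, with the motif or its reverse complement in capitals, from chr4:136886201-136886300 for C1qb and chr4:136893066-136893164 for C1qc, whose RefSeq start lies inside the GENCODE gene, so that only the bases before that gene are shown.
C1qb: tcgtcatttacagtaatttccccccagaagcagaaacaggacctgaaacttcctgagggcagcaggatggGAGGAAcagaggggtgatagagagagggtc
C1qc: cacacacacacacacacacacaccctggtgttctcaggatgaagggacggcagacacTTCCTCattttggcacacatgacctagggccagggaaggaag
The match begins 30 bases before the start of C1qb and 193 bases before that of C1qc, and it describes letters, not binding.

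The 8 libraries held 36854 barcodes, of which 32457 carried a cluster name, and their totals ran from 6591898 to 20754181 UMIs with a median of 1083 to 2505 UMIs per named cell. The second brain library at 24 h and the brain library at 72 h were deposited with a list of 31053 genes and the other 6 with 32285 genes, and this difference touched the members directly. In microglia, the ratio of C1qb to C1qa UMIs was 1.90 to 2.18 in the 6 libraries with the longer list and 0.775 to 0.840 in the 2 with the shorter one. In macrophages the same ratio was 1.91 to 2.01 against 0.940 to 1.33, and that of C1qc to C1qa was 1.52 to 1.96 against 0.646 to 0.788. The ratio in lymphoid cells was split the same way, 1.88 to 2.48 against 0.745 to 0.813. Levels of the C1q chains, C3, C4b and C5ar1 were therefore read across time in brain only between libraries of 1 list (control with replicate 1, replicate 2 with 72 h), and whether the list, the counting or the cells made the difference was not tested. The 6 libraries of the longer list shared 10 to 32 cell barcodes pairwise, and the 2 of the shorter list shared 8 with each other and 0 to 2 with the rest.

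**Figure D1:**
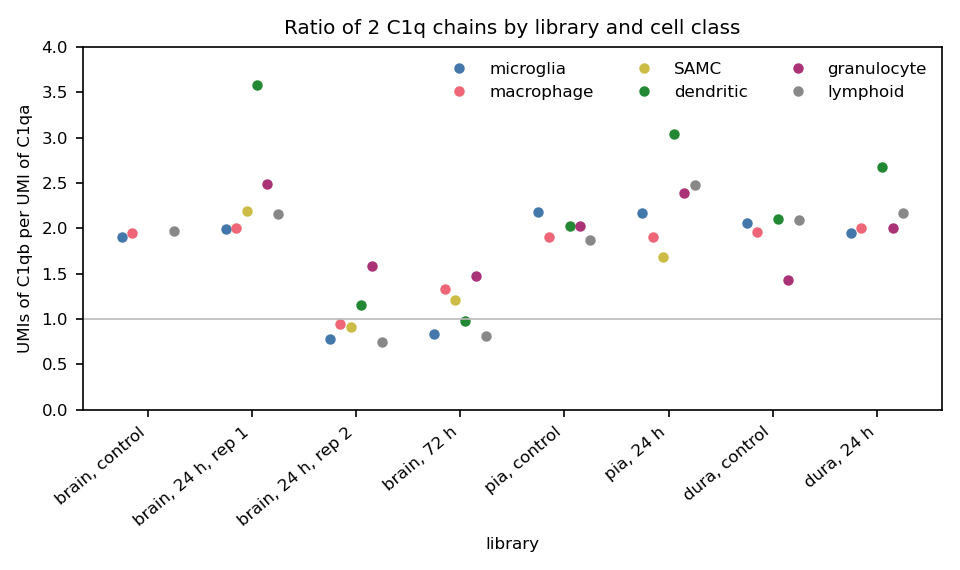
Ratio of C1qb to C1qa UMIs (y axis, no unit) for each library (x axis) and cell class (points), with a line at 1. In microglia the ratio is 1.90 to 2.18 in the 6 libraries with the longer gene list and 0.775 to 0.840 in the second brain library at 24 h and the brain library at 72 h.

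Marker lists were summed in CAM_1, CAM_2, Macro_2, SAMC, Granulo_1, Granulo_2, mDC1, mDC2 and Micro_1. These names held against their markers with exceptions that bear on the members. The names of the other clusters, among them Micro_2, Micro_3, stress_Micro, Macro_1, stress_Myeloid and the lymphoid ones, were not checked this way. CAM_1 and CAM_2 are the clusters of CNS-associated macrophages, the resident macrophages of the borders. In pia and dura their border macrophage markers (Pf4, Lyve1, Mrc1, Cd163 and Ms4a7) summed to 4153 to 6953 CPM. In control brain the same list summed to 41.9 CPM in CAM_1 (2 of 5 markers above 0) and 20.4 CPM in CAM_2 (3 of 5), while the microglia marker P2ry12 was at 5033 and 6038 CPM and Tmem119 at 3085 and 3268 CPM there. In replicate 1 at 24 h the border list summed to 6.66 and 16.6 CPM and Tmem119 was at 1344 and 1099.7 CPM. In these 2 brain libraries the markers thus went against the names CAM_1 and CAM_2, which are used here as labels alone. Granulo_1 had neutrophil markers at 77.5 to 3448 CPM, against 121986 to 306125 CPM in Granulo_2, and its monocyte markers were at 742 to 7392 CPM. The neutrophil markers thus went against the name Granulo_1, which is also used as a label alone. Below, microglia means Micro_1, Micro_2, Micro_3 and stress_Micro, macrophages means CAM_1, CAM_2, Macro_1 and Macro_2, dendritic cells means mDC1 and mDC2, granulocytes means Granulo_1 and Granulo_2 as labelled, lymphoid cells means Bc, Tc, NK, gdTc and ILC2, and SAMC is the cluster that the study named stroke-associated myeloid cells. Levels between genes are not compared, since UMIs are not scaled per length.

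The C1q chains were highest in microglia, macrophages and SAMC and low in the other classes. Microglial C1qa was 4836 CPM in control brain, 5537 and 6028 CPM in replicates 1 and 2 at 24 h and 7342 CPM at 72 h. Outside brain it was 3321 CPM in control pia, 3478 CPM in pia at 24 h, 3024 CPM in control dura and 2853 CPM in dura at 24 h, from 51 to 330 cells. These C1qa values lay below those of the 4 brain libraries, but how many of all genes part the libraries this way was not counted. C1qb and C1qc did not part them. Of the 8 libraries, brain replicate 2 was lowest (4672 and 3736 CPM) and brain replicate 1 highest (11021 and 10697 CPM). The collectin gene Colec12 was 10.7 to 76.0 CPM (5 to 13 UMIs) in microglia of pia and dura and 0 to 1.83 CPM in those of brain. In pia and dura macrophages Colec12 was 15.4 to 56.0 CPM, and the identity of the border microglia was not tested. Macrophage C1qa was 4744, 4654, 3078 and 1865 CPM in the brain libraries in the same order. It was 3809 CPM in control pia, 4549 CPM in pia at 24 h, 3476 CPM in control dura and 4278 CPM in dura at 24 h. SAMC held 2930.0, 3896 and 3083 CPM in brain (replicate 1, replicate 2 and 72 h) and 4991 CPM in pia at 24 h, the only libraries with at least 30 cells of that cluster.

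C1qb and C1qc were highest in the same 3 classes. Microglial C1qb was 9189 CPM in control brain and 11021 CPM in replicate 1 at 24 h, and 4672 and 6167 CPM in replicate 2 and at 72 h. Microglial C1qc was 9492 and 10697 CPM in the first pair of libraries and 3736 and 5888 CPM in the second pair. In lymphoid cells, which are not a known source of C1q, C1qb was 177 to 766 CPM, C1qa 89.4 to 389 CPM and C1qc 143 to 652 CPM, and these levels are taken as the background of each library. With every cell thinned to 1000 UMIs, a C1qb UMI was found in 72.7% to 99.9% of microglia, 57.6% to 99.6% of macrophages and 82.5% to 97.4% of SAMC, against 14.2% to 43.4% of lymphoid cells. Unthinned, the shares were 72.4% to 99.97% and 69.1% to 99.8% in microglia and macrophages and 16.5% to 52.8% in lymphoid cells, whose cells held a median of 810.5 to 2173 UMIs by library. Dendritic cells had a C1qb UMI in 10.1% to 38.0% of thinned cells, a range no higher than the lymphoid one, and their C1qb level is not read as expression.

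**Figure D2:**
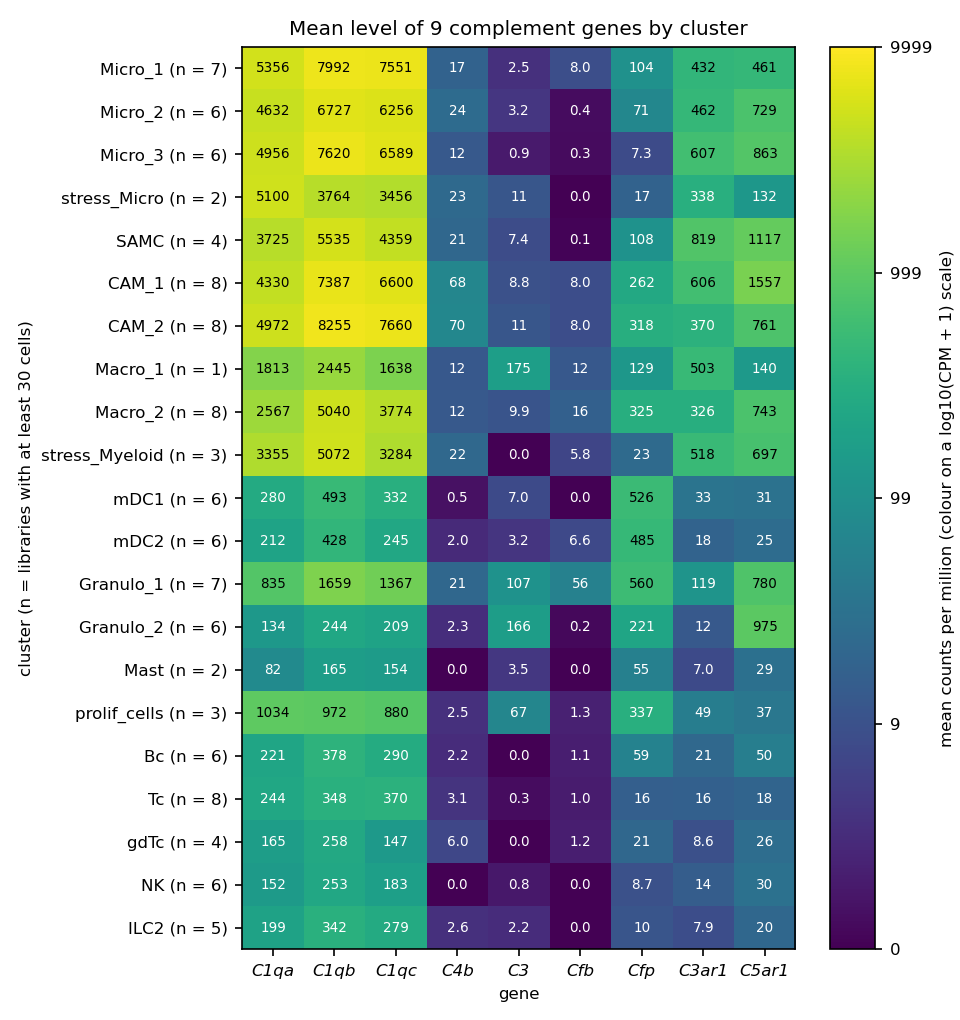
Mean CPM over libraries (printed, with colour on a log scale) of the 9 complement genes (columns) in the clusters (rows), where n libraries held at least 30 of its cells. Libraries of both gene lists are pooled, and stress_Micro and Macro_1 come from the shorter list alone. The C1q chains are high in the Micro, CAM, Macro, SAMC and stress_Myeloid clusters, C3 in Macro_1 (1 library), Granulo_2 and Granulo_1, and Cfp in Granulo_1, mDC1 and mDC2.

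The order of single clusters was less firm than that of the classes. C1qa led in Micro_1 at 5356 ± 2184 CPM (SD, n = 7 libraries), followed by stress_Micro at 5100.0 ± 80.3 CPM (n = 2) and CAM_2 at 4972 ± 1127 CPM (n = 8). Both libraries of stress_Micro are of the shorter gene list, while the means of Micro_1 and CAM_2 pool both lists. Gene list and cluster therefore cannot be told apart in the place of stress_Micro. Its C1qb mean was 3764 CPM, against 8079 and 9914 CPM in sums of 14 and 11 cells from control brain and replicate 1. C1qb led in CAM_2 at 8255 ± 3040.3 CPM (n = 8), before Micro_1 at 7992 ± 2614 CPM (n = 7), and C1qc led in CAM_2 at 7660.0 ± 3521 CPM (n = 8), before Micro_1 at 7551 ± 2988 CPM (n = 7). The cluster stress_Myeloid, in none of the classes and with 30 to 45 cells in each of 3 libraries, held C1qa at 3355 ± 2338 CPM, C1qb at 5072 ± 805 CPM and C1qc at 3284 ± 170.2 CPM (n = 3), and C3ar1 at 518 ± 133 CPM. Of the 20 pairs of neighbours in the order, the gap exceeded the larger SD in 0 pairs for C1qa, C4b, C5ar1, Cfb and Cfp and in 1 pair each for C1qb, C1qc, C3 and C3ar1. A cluster was above its neighbour in every library that held both in 0 to 4 of the 20 pairs. The clusters were built from these genes among others, so no cluster was tested against another.

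The classes that held the C1qb UMIs differed between brain and borders. Among the brain libraries of the longer gene list, microglia held 89.5% of the C1qb UMIs in control and 66.7% in replicate 1 at 24 h. Among those of the shorter list they held 71.0% in replicate 2 at 24 h and 28.7% at 72 h, where macrophages held 34.9% and SAMC 24.4% and microglia were 17.0% of the cells. By C1qa, whose ratio to C1qb differed between classes in the shorter list, the microglial shares were 75.1% and 37.5% in these 2 libraries. In pia and dura, macrophages held 81.6% to 93.2% of the C1qb UMIs and 23.8% to 68.7% of the cells. These shares are of sorted cells, so they follow the level of the gene, the UMIs captured per cell and the number of each kind of cell that the sort kept. The shares of cells beside them do not allow for depth.

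**Figure D3:**
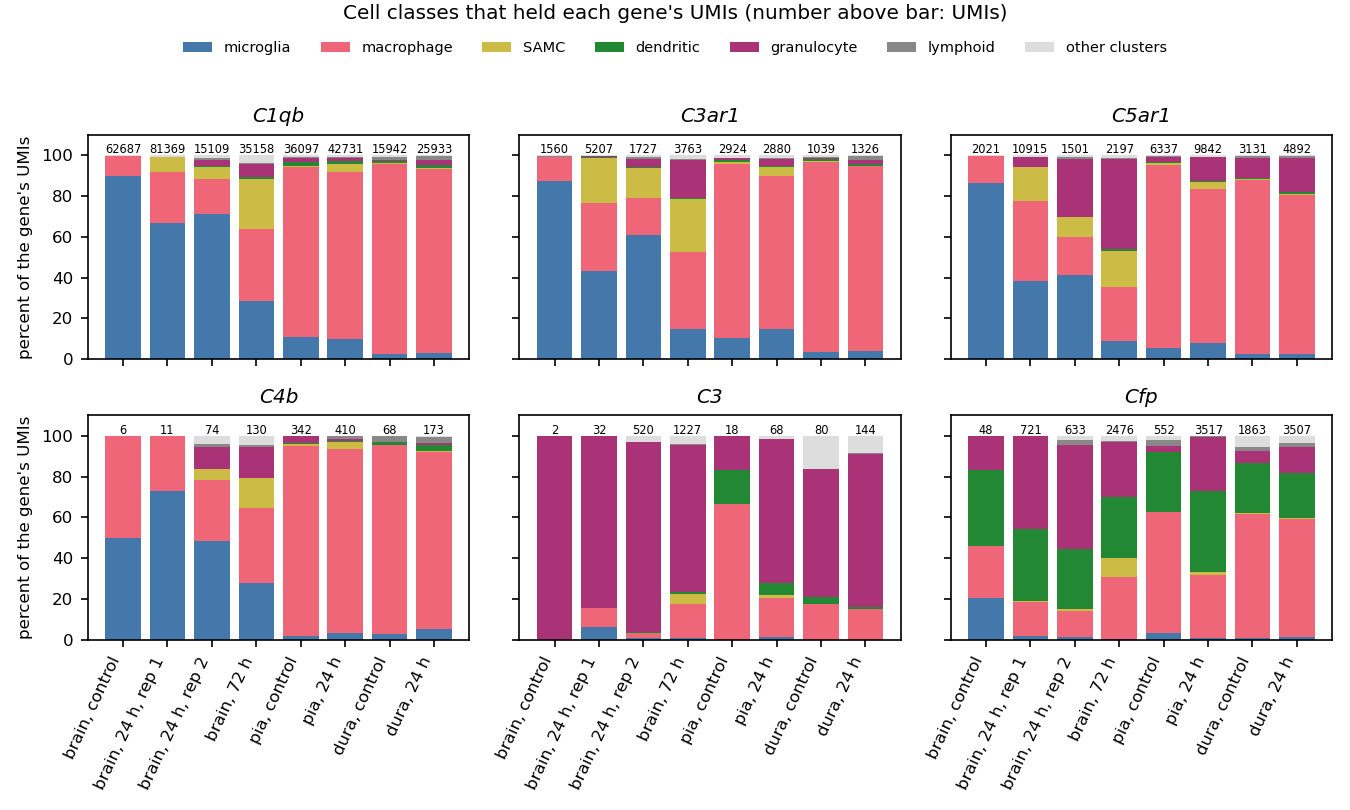
Percent of the UMIs (y axis, total count above each bar) of C1qb, C3ar1, C5ar1, C4b, C3 and Cfp that came from each cell class (colours) in every library (x axis). For C1qb the microglial part is 89.5% in control brain and 66.7% in replicate 1 at 24 h (longer gene list), 71.0% in replicate 2 and 28.7% at 72 h (shorter list), and the macrophage part is 81.6% to 93.2% in pia and dura.

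C4b, the mouse C4 gene of the classical pathway, was a low-count gene whose UMIs in pia and dura lay mainly in macrophages. Macrophage C4b was 76.8 CPM (318 UMIs) in control pia and 91.9 CPM (369 UMIs) in pia at 24 h, 28.9 CPM (63 UMIs) in control dura and 55.1 CPM (150 UMIs) in dura at 24 h. In brain macrophages it was 4.54 CPM (3 UMIs) in control, 1.38 CPM (3 UMIs) and 24.5 CPM (22 UMIs) at 24 h and 9.70 CPM (48 UMIs) at 72 h. Every brain library was below every pia and dura library, but the share of all genes for which this holds was not counted. As CAM_1 and CAM_2 of control brain and replicate 1 carried microglia markers, cell identity and tissue cannot be told apart here. Within the class, CAM_2 held 183 and 185 CPM and CAM_1 139.5 and 144 CPM in the pia libraries, and Macro_2 held 27.9 and 12.5 CPM. Macrophages carried 86.7% to 93.0% of the C4b UMIs of pia and dura. By level, C4b was not particular to them, as microglia of the border libraries reached 67.4 CPM and SAMC reached 59.4 CPM. Microglial C4b was 0.491 CPM (3 UMIs) in control brain, 1.63 CPM (8 UMIs) in replicate 1, 15.7 CPM (36 UMIs) in replicate 2 and 22.0 CPM (36 UMIs) at 72 h, so the step lay between the libraries of different gene lists. C4a, its near copy, is missing from the shorter list and had 0 to 2 UMIs in each library of the longer one.

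C3, on which the pathways converge, was found mainly in the clusters labelled granulocytes in the libraries after MCAO and in control dura, but not in control pia. Granulocyte C3 was 73.5 CPM (27 UMIs) in replicate 1 of brain at 24 h, 288 CPM (483 UMIs) in replicate 2 and 217 CPM (886 UMIs) at 72 h. It was 26.0 CPM (3 UMIs) in control pia, 53.9 CPM (48 UMIs) in pia at 24 h, and 101 and 102 CPM (50 and 108 UMIs) in control dura and dura at 24 h. Granulo_2, the cluster with high neutrophil markers, held 37.2 to 319 CPM and Granulo_1 held 0 to 269.9 CPM. In brain replicate 2 and at 72 h, Granulo_1 was the larger sum (1048374 and 3592859 UMIs of all genes, against 626335 and 490242 in Granulo_2). Most granulocyte C3 UMIs of these libraries lay in Granulo_1, and they are not read as C3 of neutrophils. Granulocytes gave 84.4%, 92.9% and 72.2% of the C3 UMIs of brain after MCAO, 70.6% in pia at 24 h and 62.5% and 75.0% in dura. In control pia they held 3 C3 UMIs, beside 12 in macrophages and 3 in dendritic cells. Microglial C3 was 0 CPM in control brain, where 3 UMIs would have been 0.491 CPM. It was 0.406 CPM (2 UMIs) and 2.18 CPM (5 UMIs) at 24 h and 9.15 CPM (15 UMIs) at 72 h. Macro_1 had the highest mean of a cluster, 175 CPM from 30 UMIs in brain at 72 h, the only library with at least 30 of its cells, and with clusters of at least 10 cells its mean was 42.0 CPM.

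Cfb, factor B, gave few UMIs in any class and was found mainly in dura and pia. All cells of a library held 2, 27, 3 and 17 Cfb UMIs in the brain libraries, 65 and 63 in pia, 194 and 74 in dura (control and 24 h). Macrophage Cfb was 14.0 and 8.97 CPM in control pia and pia at 24 h, and 63.3 and 23.1 CPM in control dura and dura at 24 h. The brain libraries were at 0 to 2.02 CPM, with the same limits as for C4b, on cell identity and on the share of all genes, which was not counted. Granulo_1 in control dura held 250.4 CPM (38 UMIs), the highest level of a cluster with at least 30 cells, and Macro_1 clusters of 16 to 28 cells in pia and dura held 148 to 339 CPM. The gene Gm20547, which covers 79.5% of the exon bases of Cfb on the same strand and is only in the shorter list, had 0 UMIs in both of its libraries, and whether the overlap cost Cfb its reads there was not tested.

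Cfp, properdin, was found in dendritic cells, the clusters labelled granulocytes and border macrophages, and microglia of the brain had almost none. Of the granulocyte labels, Granulo_1 held 560 ± 435 CPM (SD, n = 7) and Granulo_2, with the neutrophil markers, 221 ± 108 CPM (n = 6). Dendritic Cfp was 319 CPM (161 UMIs) in control pia and 1171 CPM (1392 UMIs) in pia at 24 h, 354 CPM (452 UMIs) in control dura and 624 CPM (769 UMIs) in dura at 24 h. In brain after MCAO it was 1497 CPM in replicate 1, 329 CPM in replicate 2 and 430.1 CPM at 72 h. Both 24 h border libraries were above both border controls, but how many of all genes part these libraries this way was not counted. Granulocyte Cfp was 156 CPM (18 UMIs) in control pia, 1035 CPM (922 UMIs) in pia at 24 h, 223 CPM (111 UMIs) in control dura and 427 CPM (450 UMIs) in dura at 24 h. Granulo_1 and Granulo_2 had 55 and 10 cells in control pia and 303 and 129 in pia at 24 h. In dura they had 66 and 146 cells in control and 109 and 359 at 24 h, and the part of this mix was not tested. Macrophage Cfp was lowest in brain and highest in dura both in controls and at 24 h, from 18.1 CPM in control brain to 79.0 CPM in control pia and 518 CPM in control dura, and from 54.7 and 88.0 CPM in brain to 269 CPM in pia and 740.1 CPM in dura at 24 h. Since CAM_1 and CAM_2 of control brain and replicate 1 carried microglia markers, cell identity and tissue cannot be told apart in the brain values. Microglial Cfp was 1.64 to 6.71 CPM in the 4 brain libraries and 33.5 to 449 CPM in the 4 border libraries, where the identity of the microglia was not tested. The share of all genes that part brain and border microglia this way was not counted. Thinned to 1000 UMIs, 16.5% to 60.0% of dendritic cells had a Cfp UMI (38.4% to 74.5% unthinned), against 0% to 3.52% of lymphoid cells (0% to 4.63% unthinned).

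**Figure D4:**
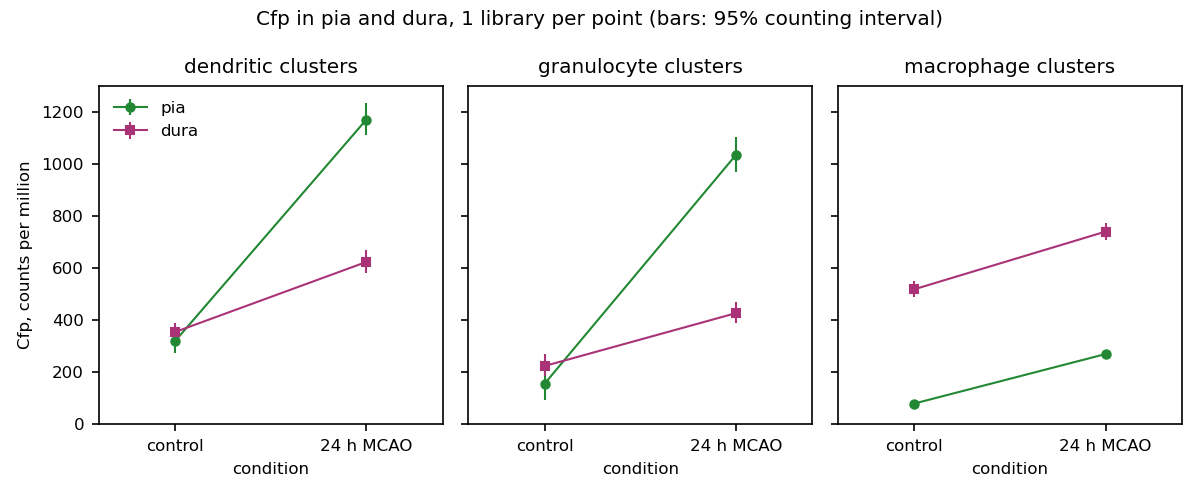
Cfp level (y axis, CPM) in control and at 24 h (x axis) in dendritic cells, granulocytes and macrophages of pia and dura (colours), 1 library per point, with bars for the 95% counting interval. Dendritic Cfp is 319 and 354 CPM in the pia and dura controls and 1171 and 624 CPM at 24 h.

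Which members changed 24 h after MCAO was tested with edgeR on the summed UMIs, with the tissue as a block and libraries as replicates, and a gene was called at an adjusted p under 0.05 and at least 2-fold. The change was assumed to be alike in the tissues, since each condition but brain at 24 h had 1 library. In dendritic cells of pia and dura, 7 members passed the filter on low counts (not C3 and C4b) and Cfp alone was called, with a log2 fold change of 1.27 ± 0.22 (SE, n = 4 libraries, edgeR adjusted p = 0.00363). The fit had 1 library for each tissue and condition and 1 residual degree of freedom, which is the difference of the change between pia and dura. Its SE and p thus rest largely on spread estimated from other genes. Of all 6914 genes tested, 0.521% were called higher and 0.738% lower. The increase was in 2 of 2 tissues, with a log2 ratio of 1.87 (95% counting interval 1.64 to 2.12) in pia and 0.82 (0.65 to 0.99) in dura, and these intervals, like all intervals here, cover counting error only. The intervals do not overlap, and whether the dendritic change differed between the tissues, which the fit assumed alike, was not tested. DESeq2 gave Cfp an adjusted p of 0.185 and scaling by library size alone one of 0.254. The member median was -0.97 against -0.02 over all genes tested, and the other members had adjusted p-values of 0.262 to 0.960.

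Cfp was higher at 24 h in both dendritic clusters and both tissues, and whether the change differed between the clusters was not tested. In mDC2 it was 393 CPM in control pia, 791 CPM in pia at 24 h, 425 CPM in control dura and 854 CPM in dura at 24 h, a log2 fold change of 0.95 (edgeR adjusted p = 0.0154, under 2-fold). In mDC1 it was 102, 1495, 284 and 351 CPM in the same order, a log2 fold change of 1.75 that was not called (adjusted p = 0.890). These tests of single clusters were added after the data were seen. The make-up of both clusters moved with time. The border macrophage list in mDC1 was at 337 CPM (3 of 5 markers) in control pia and 13.0 to 60.2 CPM in the other 5 libraries. The dendritic list (Clec9a, Xcr1, Cd209a, Flt3 and Zbtb46) in mDC1 was at 493 CPM in control pia and 1177 CPM in pia at 24 h, and at 1050 and 562 CPM in dura. In mDC2 it was at 5234 CPM in control pia and 2584 CPM at 24 h, and at 4744 and 3994 CPM in dura. The part of these shifts in the Cfp result was not tested.

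In macrophages 0 of the 9 members were called at 24 h against control, as were 0 of 9486 genes (0.0% higher and 0.0% lower). The only libraries of 1 tissue and condition in this fit, replicates 1 and 2 of brain at 24 h, are of different gene lists. That difference enters its error, so the fit cannot show that a member did not change. At an unadjusted p under 0.05 there were 459 genes, Cfp among them, and DESeq2 called 16 genes and no member. Macrophage Cfp had a log2 fold change of 1.33 ± 0.40 (n = 7 libraries, unadjusted p = 0.0137, adjusted p = 0.945). Cfb had -1.07 ± 0.51 (adjusted p = 0.945), and with pia and dura alone, an alternative added after the data were seen, -1.17 ± 0.23 with an adjusted p of 0.0172. That alternative had 1 residual degree of freedom and called far more genes of all kinds, as counted in the section on processing. Its call is thus not particular to Cfb, whose log2 ratios in the single pairs were -0.64 in pia and -1.45 in dura. The log2 fold changes of the C1q chains were -0.33 to -0.03, with SEs of 0.42 to 0.61, and their direction turned with the libraries used. The members' median was 0.26 against 0.04 over all genes. The 24 h change was not shown to differ between tissues for any member or any of 10397 genes (F test of the interaction, 0.0% called, 42 genes at an unadjusted p under 0.05). This test had 1 residual degree of freedom, the difference between replicates 1 and 2 of brain at 24 h, so it cannot show that the change was alike.

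Between tissues, by the same macrophage fit with the tissue as a block, brain and pia macrophages stood furthest apart in C4b, Cfb and Cfp. Their log2 fold changes, brain against pia, were -3.84 ± 0.92 (adjusted p = 0.126), -3.52 ± 0.68 (adjusted p = 0.0786) and -2.33 ± 0.45 (adjusted p = 0.0786), so none was called by edgeR, while 0.127% of 9486 genes were called higher and 0.569% lower in brain and 1475 genes had an unadjusted p under 0.05. DESeq2 called these 3 members among 511 genes, and without replicate 2 edgeR called them too, at -5.78 for C4b, -3.12 for Cfb and -2.55 for Cfp. That fit called far more genes of all kinds than the main one, as counted in the section on processing, so the calls are not particular to the members. The members' median was -0.80 against 0.12 over all genes. As given above, CAM_1 and CAM_2 of 2 of the 3 brain libraries carried microglia markers, and these 2 are the brain libraries left without replicate 2. Cell identity and tissue therefore cannot be told apart here. Between pia and dura, Cfp was lower in pia by a log2 fold change of -2.15 ± 0.50 and Cfb by -1.80 ± 0.55 (adjusted p = 1 for both, 0.0% of genes called in either direction). Cfp and Cfb had unadjusted p-values of 0.00386 and 0.0151, among 169 genes under 0.05, and DESeq2 called 14 genes with Cfp among them. With pia and dura alone, an alternative added after the data were seen, adjusted p was 0.0370 for Cfp (-2.09) and 0.00111 for Cfb (-1.86). This fit had 1 residual degree of freedom and called many other genes, as counted in the section on processing, so these calls too are not particular to the members. Leaving out control brain gave this same fit, since a tissue without both conditions was left out. Without replicate 2 of brain, adjusted p was 0.0225 and 0.0226.

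In granulocytes of pia and dura, 8 members passed the filter (not C4b) and 0 were called by edgeR, as were 0.0% of 5468 genes in each direction, with 328 at an unadjusted p under 0.05 and 4 called by DESeq2. This fit too had 1 residual degree of freedom. Cfp had a log2 fold change of 1.74 ± 0.42 (n = 4 libraries, unadjusted p = 0.00424, adjusted p = 0.634) and Cfb one of -1.80 ± 0.88 (adjusted p = 0.820). The control pia granulocytes stood apart: Granulo_1 there had 55 cells, C1qa, C1qb and C1qc at 3698, 7617 and 6643 CPM, C4b at 122 CPM (11 UMIs), the border macrophage list at 2491 CPM with 5 of 5 markers above 0, and S100a8 at 0. In the other 6 libraries that list was at 28.7 to 793 CPM in Granulo_1. The part of border macrophages in the control pia value was not tested. In pia alone the C1q chains of granulocytes were lower at 24 h by log2 ratios of -3.44 to -2.91, and in dura higher by 1.62 to 2.12, and C1q in granulocytes is not read as a change.

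The receptors C3ar1 and C5ar1 were on the C1q-rich classes, and C5ar1 also on granulocytes. C3ar1, the receptor of C3a, led in SAMC at 819 ± 388 CPM (n = 4), with 1264, 1014 and 425 CPM in brain (replicate 1, replicate 2 and 72 h) and 575 CPM in pia at 24 h. The next clusters were Micro_3 at 607 ± 219 CPM (n = 6) and CAM_1 at 606 ± 178 CPM (n = 8), and SAMC was above Micro_3 in 3 of 4 shared libraries. Microglial C3ar1 was 222 CPM in control brain, 459.9 and 459 CPM at 24 h and 336 CPM at 72 h. SAMC made 22.4%, 14.3% and 26.0% of the C3ar1 UMIs of brain after MCAO, from 6.57%, 3.46% and 8.02% of the cells. Shares of cells do not allow for depth. Of the UMIs of all genes, SAMC held 924227 of 8727318 in replicate 1, 243597 of 6730963 in replicate 2 and 2304083 of 16162959 at 72 h. Lymphoid cells were at 4.47 to 34.3 CPM and dendritic cells at 7.84 to 69.5 CPM.

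C5ar1, the receptor of C5a, was highest in CAM_1 at 1557 ± 945 CPM (n = 8), then SAMC at 1117 ± 879 CPM (n = 4) and Granulo_2 at 975 ± 691 CPM (n = 6). CAM_1 was above SAMC in 4 of 4 shared libraries. Macrophage C5ar1 was 399 CPM in control brain, 1951 and 312 CPM at 24 h and 119 CPM at 72 h. In the borders it was 1369 CPM in control pia, 1843 CPM in pia at 24 h, 1221 CPM in control dura and 1395 CPM in dura at 24 h. Both libraries of the shorter gene list were below the other 6, but the share of all genes for which this holds was not counted. Granulocyte C5ar1 was 1448, 253 and 239 CPM in brain, 1246 and 1275 CPM in pia and 610.0 and 780.2 CPM in dura, and at 72 h granulocytes held 44.5% of the C5ar1 UMIs of brain. Lymphoid cells were at 0 to 50.8 CPM.

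**Figure D5:**
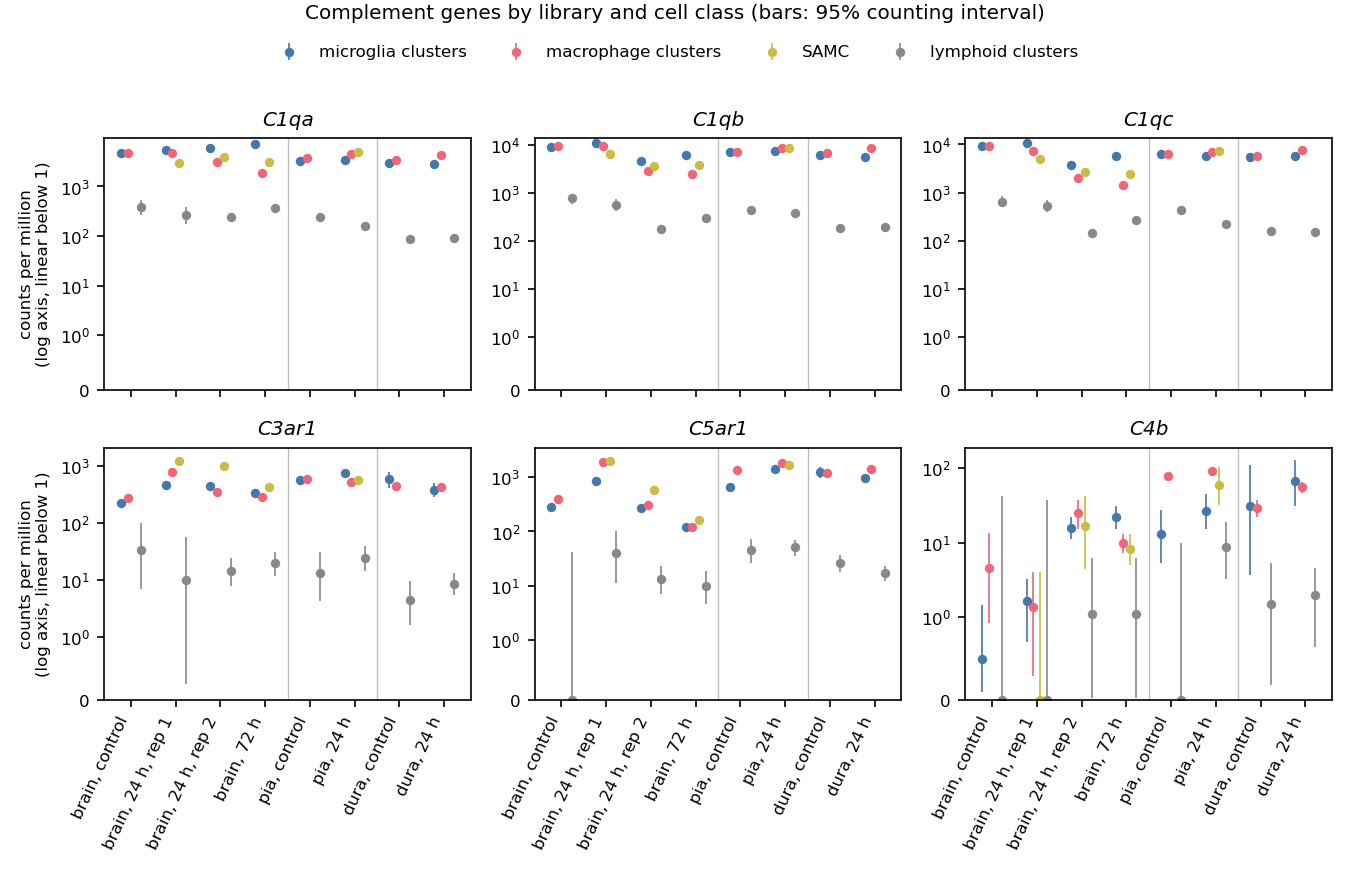
CPM (y axis, log scale and linear below 1) of the C1q chains, C3ar1, C5ar1 and C4b in each library (x axis) for microglia, macrophages, SAMC and lymphoid cells (points, with bars for the 95% counting interval). Macrophage C5ar1 is 1221 to 1843 CPM in pia and dura and 119 and 312 CPM in the 2 brain libraries of the shorter gene list, and lymphoid cells are at most at 50.8 CPM.

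In brain the time course rests on single libraries, so counts of members past 2-fold are given beside the share of all genes with at least 20 UMIs that passed it, with no test. Against control, replicate 1 at 24 h had 2 of 6 members past 2-fold in microglia, C3ar1 (log2 ratio 1.05, 95% counting interval 0.95 to 1.15) and C5ar1 (1.57, 1.49 to 1.66), where 4.22% of genes were higher and 1.3% lower. The C1q chains of microglia were higher by 0.17 to 0.26 in log2. In macrophages of the same pair C3ar1 (1.50), C5ar1 (2.29) and Cfp (1.54) were past 2-fold, 3 of 6, beside 13.2% of genes higher and 9.33% lower. Across gene lists the background was far larger: replicate 2 against control had 37.5% of genes higher and 15.9% lower in microglia, with 4 of 7 members past 2-fold, and 30.1% and 17.0% in macrophages with 4 of 7. The library at 72 h against control had 29.5% and 16.0% in microglia with 3 of 7 members, and 27.5% and 20.4% in macrophages with 6 of 8, so these pairs are not read for the members.

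From 24 h to 72 h, replicate 2 and the 72 h library share a gene list, a comparison chosen after the data were seen. Their kit labels differ (version 2 and version 3), while their cell barcodes overlapped with each other (8 shared) more than with those of the longer list. The labels and the barcodes thus part the libraries differently, and which kit made each library was not tested. If the kits did differ, kit and time cannot be told apart in this pair. In microglia 2 of 8 members were past 2-fold, C3 higher (log2 ratio 1.98, from 5 and 15 UMIs) and C5ar1 lower (-1.18), beside 5.17% of genes higher and 9.35% lower. In macrophages C3 was higher (1.44) and C4b (-1.35) and C5ar1 (-1.39) were lower, 3 of 8, beside 4.23% and 12.9%. SAMC had 5 of 8 members past 2-fold beside 12.2% of genes higher and 23.9% lower. SAMC C3 went from 0 of 243597 UMIs to 58 of 2304083 UMIs (25.2 CPM), with a counting interval of the log2 ratio that began at 0.69. SAMC Cfp was higher (1.65), while C3ar1 (-1.26) and C5ar1 (-1.86) were lower. SAMC C4b (-1.13, 4 and 19 UMIs) had a counting interval of -2.58 to 1.02, which holds 0. Granulocytes had C1qa (1.17), C1qb (1.07) and C3ar1 (2.08) higher, 3 of 8, beside 8.05% and 4.07%, and dendritic cells had C5ar1 at 1.55 from 2 and 22 UMIs (interval -0.18 to 4.97), 1 of 6, beside 5.02% and 4.06%. C5ar1 was thus lower at 72 h in microglia, macrophages and SAMC of this pair. The edgeR fit over the 4 brain libraries had 1 residual degree of freedom. Its only replicates, the 2 libraries at 24 h, are of different gene lists, so that difference enters its error. It therefore cannot show that a member did not change. In this fit, 0 of 8 microglial members (not Cfb) were called at 24 h against control (0.0% of 11350 genes in each direction, 157 genes at an unadjusted p under 0.05, 12 called by DESeq2) or at 72 h against 24 h (0.00881% higher, 0.0% lower, 71 genes under 0.05). C5ar1 had -2.37 ± 1.6 and C3 2.98 ± 2.27 in the latter (adjusted p = 1 for both).

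In pia and dura at 24 h, the single pairs of macrophages differed in few members. The control dura library is labelled with kit version 2 and that at 24 h with version 3. Their cell barcodes overlapped (17 shared) like those of the other libraries of the longer gene list, and which kit made each was not tested. If the kits did differ, kit and time cannot be told apart in the dura pair. In pia Cfp (log2 ratio 1.77) was the 1 of 9 members past 2-fold, beside 5.33% of genes higher and 3.27% lower, and in dura Cfb (-1.45) was the 1 of 9, beside 2.74% and 3.1%. Dendritic cells of pia had 6 of 6 members with enough UMIs past 2-fold, beside 11.5% and 5.45% of genes. There the C1q chains (-2.36 to -1.74), C3ar1 (-3.00) and C5ar1 (-1.36) were lower and Cfp higher, with the border macrophage list of mDC1 at 337 CPM in the control as given above. In dura, C5ar1 (1.32) was the 1 of 6 past 2-fold, beside 2.54% and 4.88%. Granulocytes had 4 of 8 past 2-fold in pia, the C1q chains lower and Cfp (2.69) higher, beside 18.7% and 10.1%. In dura 5 of 8 were past it, the C1q chains higher, Cfb (-3.27, 38 and 8 UMIs) lower, and C3ar1 at 1.24 from 5 and 27 UMIs (interval -0.05 to 3.08), beside 3.41% and 6.07%. The lymphoid fit had 6 members tested, 0 called (0.0% of 7251 genes in each direction, 107 genes at an unadjusted p under 0.05) and a Cfp log2 fold change of -0.09 ± 0.63 (n = 7 libraries, brain included).

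Among genes with a mean of at least 50 CPM, those whose levels were most like each member's were listed over the 112 sums of a library and cluster (Pearson r of log2(CPM + 10), as a description, since the sums share libraries, depth and clusters). C1qb was most like C1qc (r = 0.989) and C1qa (0.965), and then Lgmn (0.935), a lysosomal protease. C1qa and C1qc also had Fcrls (0.944 and 0.942), a microglia gene. C3ar1 was most like C1qb (0.927), C1qa (0.922) and C1qc (0.909). C5ar1 was most like Cd14 (0.860), Fcgr3 (0.850) and Slc11a1 (0.825), all genes of phagocytes. C3 was most like Chil3 (0.893), Thbs1 (0.867) and Mmp8 (0.849), and C4b was most like Cbr2 (0.773), Gas6 (0.722) and Mrc1 (0.721), of which Mrc1 is a border macrophage marker. Cfp was most like Ifitm2 (0.879), Wfdc17 (0.852) and Clec4n (0.838), and Cfb was most like Clec4a1 (0.662), Clec4n (0.589) and Mcub (0.579). Cfp had an r of -0.18 with C1qa, 0.39 with C3 and 0.51 with Cfb.

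Of 44 other complement genes, 43 were in the shared list (not C4a), and Mbl1, Cd55b, Cfd, Cfi, C8b and C7 were listed at 0 UMIs in all 112 sums. Itgb2 (259 CPM) and Itgam (152 CPM), the chains of complement receptor CR3, and the C1q-binding receptor Lrp1 (129 CPM) were among those with means of at least 100 CPM over the sums. By edgeR, 0 of the 7 to 18 genes tested were called in each comparison apart from brain against pia macrophages, where 2 of 17, Fcna and Colec12, were lower in brain (adjusted p = 0.0339 and 0.0328, 0.569% of genes called lower). Both calls were lost without replicate 1, and also without dura, when 0 genes were called. Leaving out either dura library left out both, since a tissue without both conditions was not fitted. CAM_1 and CAM_2 of 2 of the brain libraries carried microglia markers as given above. Fcna, a ficolin of the lectin pathway, was 0, 0 and 2.23 CPM in control brain and brain at 24 h against 60.2 and 148 CPM in pia. Colec12, a collectin, was 0, 0 and 1.11 CPM against 56.0 and 52.6 CPM. Macrophage Lrp1 was 476 and 487 CPM in the 2 libraries of the shorter gene list and 31.1 to 75.8 CPM in the other 6, and the share of all genes for which this holds was not counted.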

How the data were processed

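UMI counts per gene and barcode of 8 libraries and a table of cluster names were deposited by the authors. The submitters' processing notes name Cell Ranger 6.0 and mm10. The authors' selection and clustering of cells were kept by using the named barcodes, and no further doublets were removed. The kit labels (version 3 for brain at 72 h and dura at 24 h, version 2 for the rest) do not follow the gene lists, whereas the sharing of cell barcodes does.

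Genes were matched by identifier (30406 shared, of which 99.7% were in GENCODE M21) and UMIs summed per library and cluster or class, with at least 30 cells. Tests used edgeR 4.0.16 (filterByExpr, TMM, quasi-likelihood, robust, two-sided) in R 4.3.3, with Benjamini-Hochberg adjustment over all genes tested and a 2-fold minimum. Libraries, not cells, were replicates, and p-values measure only the spread between these libraries. Where the tissue was a block, that spread includes any difference of the change between tissues, and it was moderated by the spread of other genes. DESeq2 1.42.0 was an alternative. The fits were run on simulated counts with 4-fold changes, a set dispersion of 0.05 and no difference between gene lists. They recovered 16% of the changed genes in the interaction fit and 69% for microglia at 72 h against 24 h. The other fits recovered 82.5% to 99.5%. As the spread between these libraries can be larger, this does not show how the fits fare on the data. Single pairs of libraries were compared with 0.5 counts added, for genes with at least 20 UMIs over the pair. Intervals of log2 ratios were exact 95% binomial intervals of the split of the 2 counts, with no counts added. Intervals of CPM were exact 95% Poisson intervals. Shares of cells were taken after thinning to 1000 UMIs, leaving out 2284 microglia, 1008 macrophages, 2760 lymphoid cells, 90 SAMC, 56 dendritic cells and 628 granulocytes of fewer UMIs. The text names all 9 members, other complement genes if called or of at least 100 CPM (some are not reported here), and the 3 genes most like each member. Members and lists were chosen with earlier results of these data known.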

Additional observations from a re-analysis of the deposited data

Results flagged for a closer look

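Barcodes without a cluster name were not used in the comparisons. In replicate 1 of brain at 24 h, 378 such barcodes held the complement genes at a summed 24693.5 CPM (95% counting interval 24416.8 to 24972.6), above the 21421.9 CPM (21124.4 to 21722.5) of the unnamed barcodes of control brain. In the brain libraries of the shorter gene list the unnamed barcodes were below control, at 4576 CPM in replicate 2 at 24 h and 5355 CPM at 72 h. The 2 replicates at 24 h thus lay on opposite sides of control. The value of replicate 1 was singled out because it exceeds that of the control in data outside the comparisons.

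The direction of the 24 h change in pia and dura was opposite for some members in single pairs of libraries, and the difference was not tested for dendritic cells and granulocytes. In dendritic cells the log2 ratio was -2.32 in pia and 0.62 in dura for C1qa, -1.74 and 0.96 for C1qb, -2.36 and 0.63 for C1qc, and -1.36 and 1.32 for C5ar1. In granulocytes it was -3.14 and 1.62 for C1qa, -2.91 and 2.12 for C1qb, and -3.44 and 1.83 for C1qc. Beside them, the control pia library had the border macrophage list at 2491 CPM in Granulo_1 and 337 CPM in mDC1, its highest values in these clusters, and its part was not tested.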

How the results depend on the processing

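The count of genes called moved with the setting in most comparisons. For macrophages at 24 h, where 0 genes were called, DESeq2 called 16, no filter on low counts 73, and pia and dura only, chosen after the data were seen, 225 with 1 member, and leaving out a library in turn gave 0 to 225 genes and 0 to 1 member. For pia against dura DESeq2 called 14 with 1 member, no filter 59, pia and dura only 285 with 2, and leave-one-out fits 0 to 285 with 0 to 2. For brain against pia, 66 genes became 511 with 3 members (DESeq2), 10 (library size alone), 747 with 3 (no filter) and 0 to 1941 with 0 to 3 (leave-one-out). Leaving out the only library of a condition in a tissue left out that whole tissue. The fit without control brain was thus the fit on pia and dura only (225, 285 and, in lymphoid cells, 42). The fits without control dura and without dura at 24 h were 1 and the same fit on brain and pia (0 for brain against pia). Single libraries that moved the counts were replicate 2 of brain at 24 h (136, 79, 1941 and, in lymphoid cells, 44) and replicate 1 (0 for brain against pia). In dendritic cells, 87 genes with Cfp became 7 (DESeq2), 4 (library size alone) and 5 (no tissue block), each with 0 members, and 169 with 2 (no filter), while mDC1 alone and mDC2 alone, both added after the data were seen, gave 0 members. Without the tissue block the adjusted p of Cfp was 0.210 and without the filter 7.5e-08, and over its alternatives it ranged up to 0.890 (mDC1 alone). Granulocytes went from 0 genes to 4 (DESeq2), 2 (library size alone) and 78 with 1 member, Cfp (no filter). Lymphoid cells went from 0 to 8 (no filter) and 0 to 44 (leave-one-out), microglia at 24 h from 0 to 12 (DESeq2), and microglia at 72 h from 1 to 0 (no filter).

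Several log2 fold changes turned sign. In macrophages at 24 h, C1qa was 0.045 with library size alone and 0.021 thinned, and with pia and dura only C1qb was 0.23, C1qc 0.19, C1qa 0.21 and C3ar1 -0.15. Leave-one-out ranges there were -0.43 to 0.23 (C1qb), -0.62 to 0.19 (C1qc), -0.17 to 0.21 (C1qa), -0.15 to 0.51 (C3ar1) and -0.0053 to 0.94 (C5ar1). C3, brain against pia, was 0.41 with library size alone and -1.99 to 0.65 in leave-one-out fits. Granulocyte C3ar1 was 0.046 (DESeq2) and 0.065 (no filter). In lymphoid cells Cfp was 0.049 (DESeq2) and -0.23 to 0.50 (leave-one-out), and C5ar1 was -0.032 (no tissue block) and -0.29 to 0.72 (leave-one-out). Microglial C1qa at 24 h was 0.26 with library size alone. C3 in Macro_1 went from 175 CPM to 42.0 CPM with at least 10 cells and 78.0 CPM with all cells pooled. The causes were not tested.

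With cells thinned, members past 2-fold went from 2 to 1 (microglia, replicate 1 against control), 4 to 2 (replicate 2), 3 to 1 (72 h) and 2 to 1 (72 h against replicate 2), from 1 to 2 (macrophages of dura), 5 to 3 (granulocytes of dura), 5 to 2 (SAMC) and 1 to 0 (dendritic cells, 72 h). The cluster with the highest mean changed with some setting for each member except C5ar1. No paired analysis was possible because replicate numbers are given only for brain at 24 h. Fits without a library could not be fitted for granulocytes and dendritic cells, for microglia without a library of the groups compared, for tissue contrasts without a library that the contrast needs, and for the interaction without a brain library. Depth limits C3, C4b and Cfb, which had 0 to 36 UMIs in the microglia of a library, as it does Cfp in brain microglia (10 to 16 UMIs).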
